A study of Arabidopsis thaliana with 4 samples.

Results

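Leaf explants of Arabidopsis thaliana plants labelled lbd16-2 were compared between day 4 and day 0 of culture on callus inducing medium. The members are the 2251 genes, of 2773 in any deposited table, that the authors listed as higher at day 4 in lbd16-2, and all of them were kept. They make up 9.18% of the 24518 genes tested. The allele lbd16-2 is a mutant of LBD16, which encodes a LOB-domain transcription factor. In each of the 4 groups (lbd16-2 at day 4, lbd16-2 at day 0, wild-type Col-0 at day 4 and wild-type Col-0 at day 0) there was 1 library of total RNA. Plants of both genotypes had grown for 12 days at 22 °C under 16 h of light and 8 h of darkness, and their first pair of leaves was then cut. Explants were kept on the medium in continuous darkness at 22 °C for 4 days or sampled at day 0. The day 4 tissue is labelled as whole leaf explants with callus, and the day 0 tissue as whole leaf explants. The labels do not say how many plants or leaves entered a library.

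Callus inducing medium holds auxin and cytokinin. Leaf cells near veins and wounds re-enter division on it and pass through a programme that shares regulators with the start of a lateral root. LBD16 is switched on by auxin, acts with its relatives LBD18 and LBD29 in the first steps of lateral root formation, and is known as a driver of callus formation on such medium.

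Only genes that were higher at day 4 are in the table, so nothing is said here of genes that fell or changed less. Each side had 1 library, so the differences below have no replicates behind them and were not tested. Ranges in parentheses after a fold are 95% exact binomial intervals of the counted reads, which leave out all variation between plants and compare the 2 libraries alone. Levels are normalised reads, that is reads divided by the size factor of the library. These size factors were 1.68 at day 4 and 1.08 at day 0, so that 1 read stands for 0.594 normalised reads at day 4 and 0.928 at day 0. The listed genes held 3595214 reads at day 4, against 92884 at day 0. A gene without day 0 reads is set against a floor of 3 reads, which is 2.78 normalised reads, and its fold is then a lower bound.

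LBD16 itself was in the list. It had 518 normalised reads at day 4, against 34.3 at day 0 in lbd16-2, a 15.1-fold difference (10.9 to 21.6). A sum of reads over the whole gene says nothing of whether its transcript is intact, so these values do not check the genotype label. The labelled leaf tissue could not be checked either: none of 11 photosynthesis markers (RBCS, LHCB, LHCA, PSAD-1 and PSBO1 genes) was listed, and a table of higher genes alone does not show their level. Libraries are of whole explants, so more cells of a type and more RNA per cell cannot be told apart.

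The list was drawn by a log2 fold above 3, an 8-fold limit, on values to which 1 normalised read had been added. Just inside this limit lay AT1G66620 at 3.00, with 572 normalised reads at day 4, against 70.5 at day 0, and among the next genes was the kinesin gene MRH2 at 3.00, with 81.4 and 9.28. Just outside, among genes of the wild-type list, lay AT1G33500 at 2.999, with 73.7 and 8.35, and the cellulose synthase gene CESA10 at 2.996, with 44.0 and 4.64. Because of the added read, a gene without day 0 reads entered the list from 12 reads at day 4, and 12 was the lowest count in the list. A gene at 20 normalised reads could enter only with 1 read or none at day 0, whereas a gene at 100 could enter with up to 12.

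**Figure D1:**
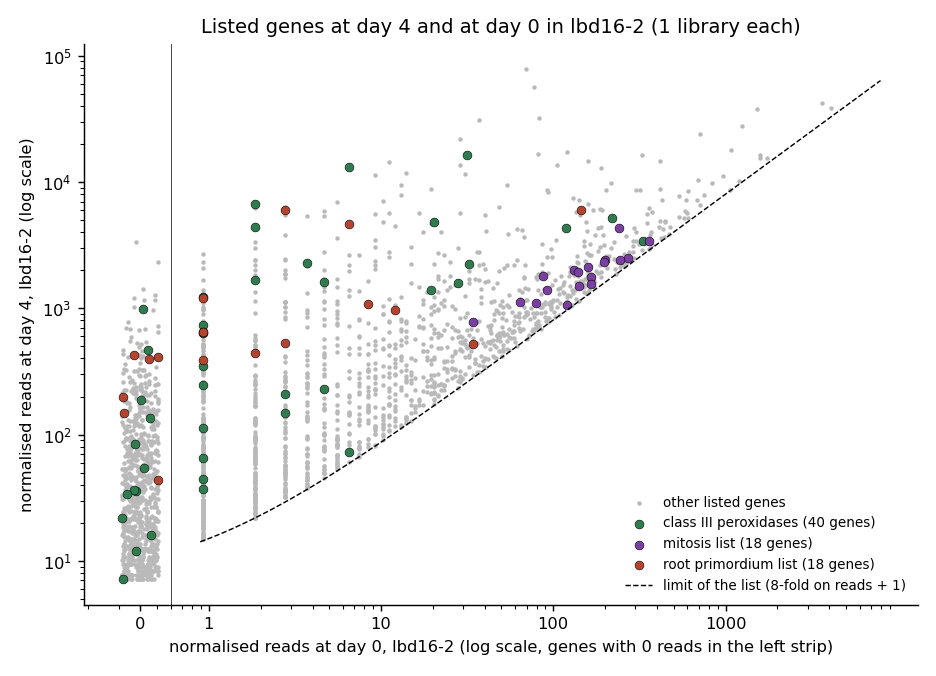
Normalised reads at day 4 (y axis, log scale) against day 0 (x axis, log scale, with the genes at 0 reads spread in a strip at the left) for the 2251 listed genes of lbd16-2, 1 library per day, with 3 sets of genes coloured. The dashed line is the limit of the list; mitosis genes lie close above it with reads at day 0, while root primordium genes lie mostly at the left with few or none.

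No read was counted at day 0 for 815 of the 2251 genes (36.2%), and 1436 had at least 1. Of the others, 456 had 1 to 3 reads, 423 had 4 to 20, 338 had 21 to 100 and 219 had more than 100. Genes without day 0 reads also had low levels at day 4, with a median of 30.9 normalised reads, against 410.2 for genes with day 0 reads. Per kb of coding length, the scale on which genes are compared with each other below, these medians were 37.9 and 411. The medians of the deposited log2 fold were 4.996 without day 0 reads and 4.18 with them, and 4.46 over the whole list.

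Day 4 levels spanned 2.28 to 157858 normalised reads per kb. The 2187 protein-coding members were put in 4 equal bands by this level. In the lowest band, up to 39.3 per kb, 72.9% of genes had no day 0 reads. This share was 43.7% in the second band, 20.8% in the third and 5.30% in the highest band, which began at 723 per kb. The limit itself shapes this slope, since weakly read genes could enter only from near 0. Among the 334 genes under 20 normalised reads at day 4, 304 had no day 0 reads and the rest had 1. Where the limit left room the share was smaller: it was 13.96% of the 1254 genes with at least 100 normalised reads, or 175 genes, and 8 of the 436 genes with at least 1000.

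A few genes held many of the reads of the list at day 4. The most read gene took 3.64% of all reads of the list at day 4, the top 10 took 18.2% and the top 100 took 52.6%. By level per kb the list was led by LTP2, a lipid-transfer protein of the cell surface, with 56355 normalised reads at day 4, against 77.0 at day 0, a 732-fold difference (590.4 to 919). GH3.3, an enzyme that links auxin to amino acids, had 77819 and 69.6, a 1119-fold difference (892 to 1422). Expansin EXPA4, which loosens cell walls, had 37982 at day 4 and 1531 at day 0, 24.8-fold (23.6 to 26.1). GASA6, a small gibberellin-regulated secreted protein, had 15373 and 1593, 9.65-fold (9.19 to 10.1). These leading genes therefore had very different starting levels: LTP2 and GH3.3 had 83 and 75 reads at day 0, while EXPA4 and GASA6 had 1651 and 1717. The top 10 with day 0 reads also held the lipid-transfer-type genes AT3G18280, AT4G15160 and LTP3, the secreted CAP-family gene AT2G19970, the ethylene-responsive factor gene EBP and DJ1A of the DJ-1 family.

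Among genes without day 0 reads the highest level per kb was that of AT5G07310 (ERF115), an ethylene response factor of wound-induced stem cell renewal. Its level of 2314 normalised reads at day 4 was at least 832-fold higher than at day 0. ALMT1, which releases malate from roots, reached 3344 at day 4, at least 1202-fold higher than at day 0. RGF8, which encodes a peptide hormone of the root meristem, reached 697, at least 250.4-fold higher, and the AT-hook gene AHL19 reached 1433, at least 515-fold higher. The remaining genes of this top 10 were the defensin-like gene AT4G22212, the leucine zipper gene bZIP70, the LEA-domain gene AT2G03740, the nucleotide-binding protein gene AT1G12805 and 2 genes for uncharacterised proteins, AT5G66985 and AT3G60650. All 10 lay between 1511 and 2922 normalised reads per kb at day 4, so the highest genes that started from no reads stayed far under LTP2.

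Absence of reads was compared with the wild-type day 0 library for the 1657 genes listed in both genotypes. Of the 576 without day 0 reads in lbd16-2, 393 (68.2%) had none in wild type either, 159 had 1 to 3 and 24 had more, up to 32 reads. Of the 1081 with day 0 reads in lbd16-2, 108 (9.99%) had none in wild type. The day 0 size factors were 1.08 in lbd16-2 and 1.43 in wild type, so that 1 read stood for fewer normalised reads in wild type, and the part of this in the counts was not tested. The 24 genes included ALMT1, with 0 reads in lbd16-2 and 32 in wild type, CYP71A13 of camalexin synthesis, with 0 and 24, and the senescence-associated gene SAG13, with 0 and 20. For these, the absence of day 0 reads in lbd16-2 was not seen in the wild-type leaf library. Having been picked for 0 reads in lbd16-2, they could differ in 1 direction only. Among genes with reads in both day 0 libraries, examples chosen after their values were seen lay both ways. The lipase gene AT1G54020 had 200 day 0 reads in lbd16-2 and 12 in wild type, and JAL33 had 75 and 16, whereas EXT4 had 14 in lbd16-2 and 234 in wild type, and PAD3 had 4 and 86. Among the 175 genes without day 0 reads that had at least 100 normalised reads at day 4, 169 had wild-type values, and 91 of these (53.8%) had none in wild type and 153 (90.5%) at most 3 reads.

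**Figure D2:**
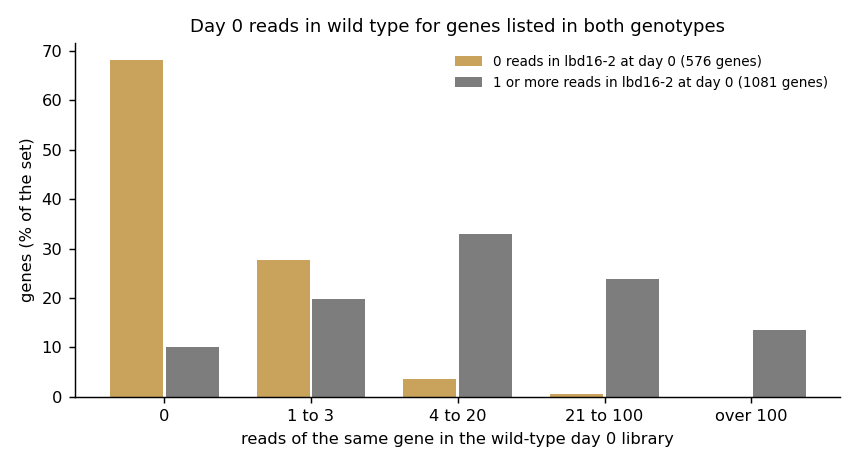
Reads in the wild-type day 0 library (x axis, in 5 bins) for genes listed in both genotypes, as a percentage of the genes without day 0 reads in lbd16-2 and of those with day 0 reads (y axis). Of genes at 0 in lbd16-2, 68.2% were at 0 and 27.6% at 1 to 3 reads in wild type.

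Functions were read from the words of the RefSeq product and symbol, with each gene counted once. Of the annotated protein-coding genes 7.93% were listed (2187 of 27562). Groups above this were hormones (70 of 362 genes, 19.3%), cell wall (182 of 1077, 16.9%), lipids and barriers (71 of 431, 16.5%), cell division (46 of 305, 15.1%), specialised metabolism (162 of 1076, 15.1%), transport (114 of 838, 13.6%), transcription (235 of 1984, 11.8%), signalling (168 of 1574, 10.7%) and defence (72 of 713, 10.1%). Storage and stress proteins were near it (24 of 295, 8.14%). Other named proteins (658 of 12499, 5.26%) and proteins of unknown function (267 of 3998, 6.68%) lay under it. So did protein turnover (73 of 1736, 4.21%) and redox and low oxygen (45 of 674, 6.68%). The last group joins 2 unlike classes. Alternative oxidase, low-oxygen and fermentation genes lay above 7.93%, at 10 of 48 (20.8%). Thioredoxins, glutaredoxins, cupredoxins and oxidoreductases lay under it, at 35 of 626 (5.59%). The place of cell division depended on the limit: with a log2 fold above 4 it held 10 of 305 genes (3.28%), against 4.86% of all protein-coding genes. No test was made of these shares, because genes of a family are not independent and the groups rest on words. A further 64 members were non-coding RNA genes, 35 of them without day 0 reads. The most read of these, AT3G59765, had 2628 normalised reads at day 4, against 166 at day 0.

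**Figure D3:**
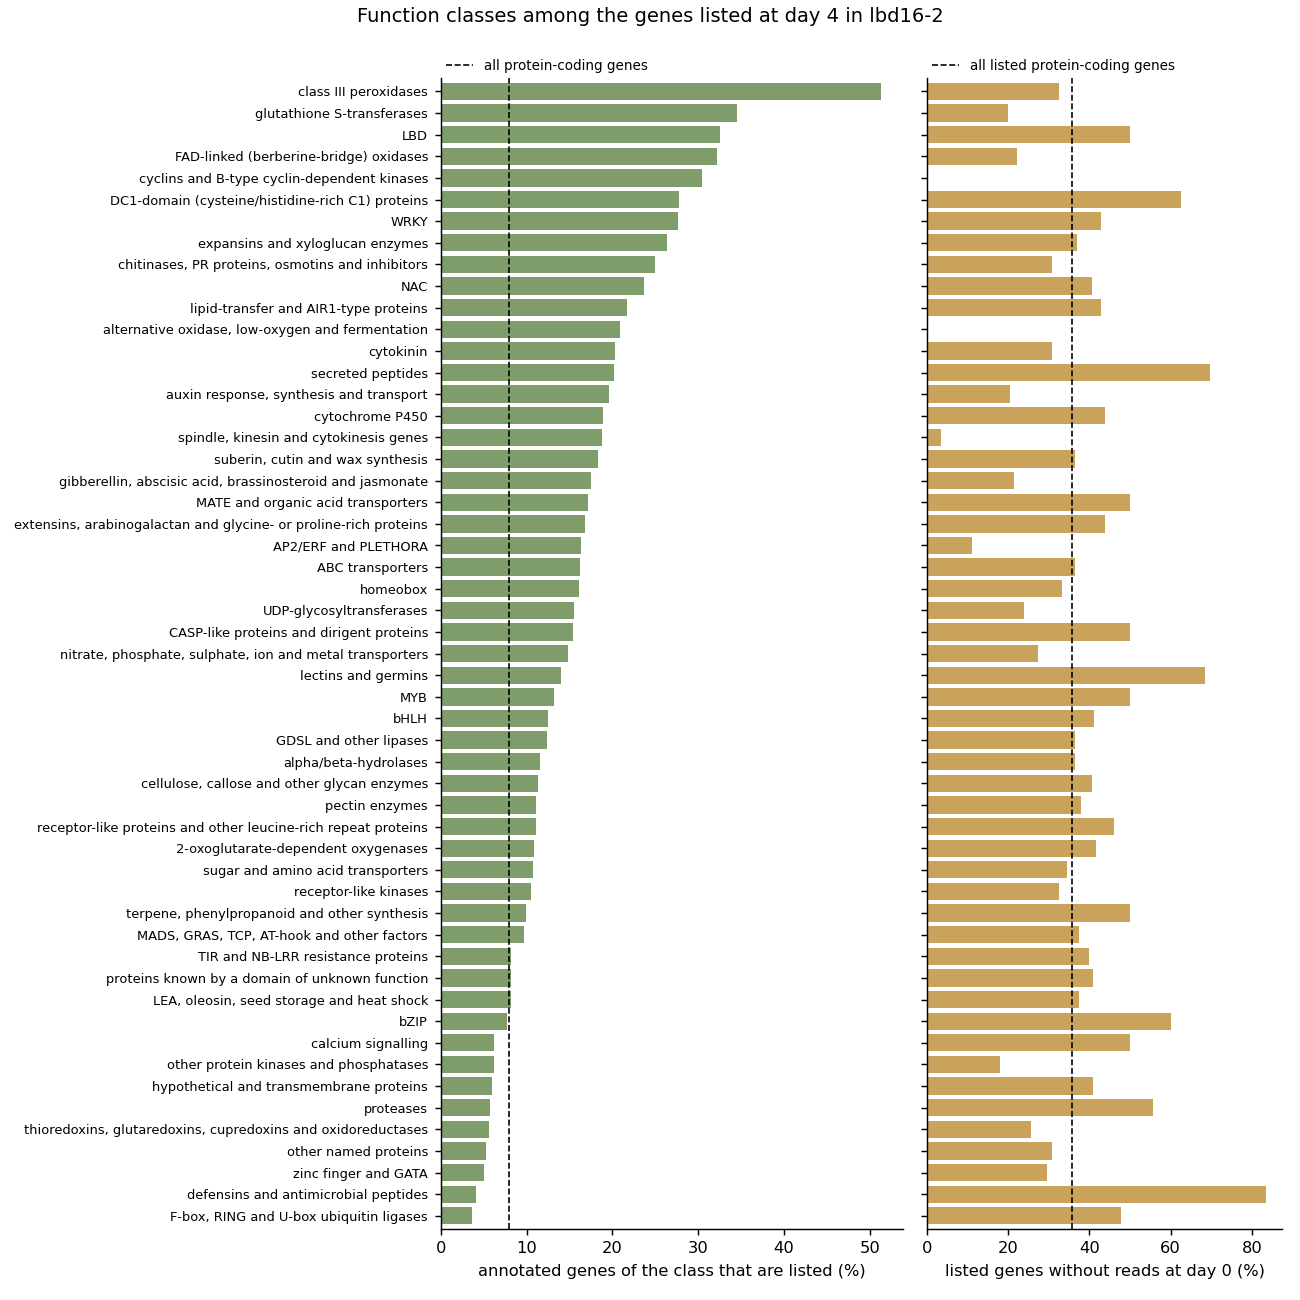
Share of each function class that was listed (left, % of annotated genes) and share of its listed genes without day 0 reads (right, %), for classes with at least 5 listed genes; dashed lines mark all protein-coding genes (left) and all listed protein-coding genes (right). Class III peroxidases lead on the left at 51.3%; cyclins and low-oxygen genes have no gene without day 0 reads.

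Groups differed in level. Of the cell division genes 50% lay in the highest band of day 4 level, as did 45.7% of hormone genes, 42.2% of redox and low-oxygen genes, 35.2% of lipid and barrier genes and 33.5% of cell wall genes. Only 7.14% of signalling genes did, while 39.9% of them lay in the lowest band. Within signalling, the share in the lowest band ran from 13.0% of secreted peptide genes to 65% of DC1-domain genes. Hormone genes, 3.11% of the list, took 10.01% of its reads at day 4, and signalling genes, 7.46% of the list, took 2.41%. Across the bands from lowest to highest, signalling made up 12.3%, 8.59%, 7.68% and 2.19% of the genes, and protein turnover 5.49%, 3.66%, 2.74% and 1.46%. Cell wall genes made up 7.14% of the lowest and 11.2% of the highest band, hormone genes 1.83% and 5.85%, and cell division genes 0.733% and 4.20%. Transcription genes made up 8.24% of the lowest band and 10.8% to 12.1% of the others.

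**Figure D4:**
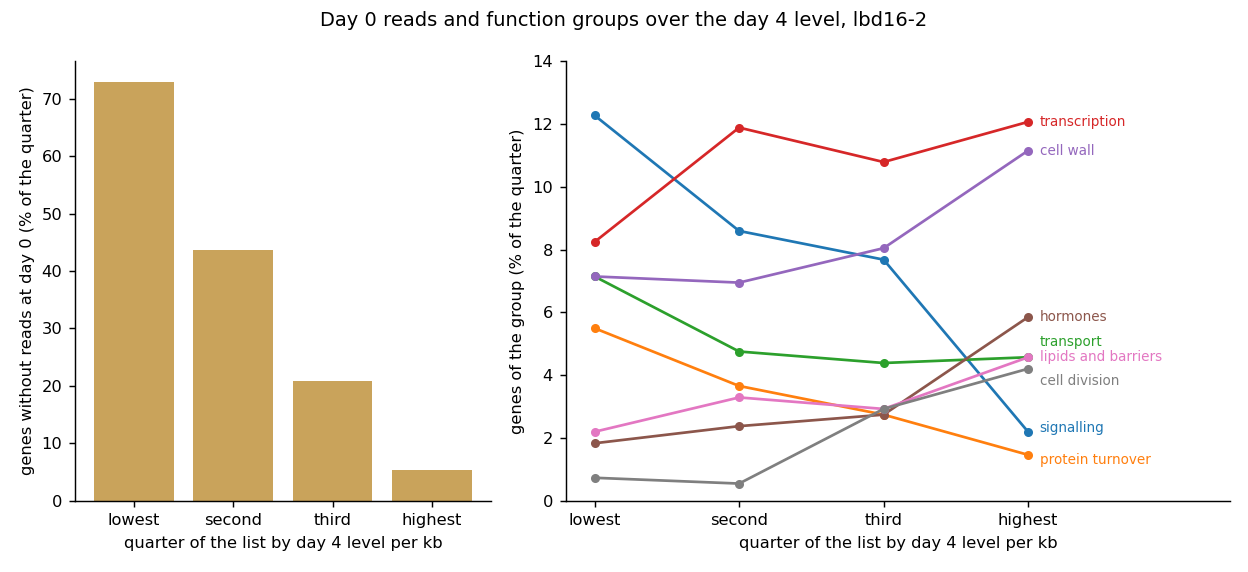
Left, share of genes without day 0 reads (y axis, %) in 4 equal bands of protein-coding listed genes by day 4 normalised reads per kb (x axis). Right, share of each band (y axis, %) held by 8 function groups; signalling holds 12.3% of the lowest and 2.19% of the highest band, hormones 1.83% and 5.85%.

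Presence or absence of day 0 reads divided the groups only partly as level did. Lipids and barriers (40.8%) and cell wall (39.0%) exceeded the 36.2% of the list without day 0 reads, although 35.2% and 33.5% of their genes lay in the highest band. Transport was under it at 32.5%, although 34.2% of its genes lay in the lowest band. The share without day 0 reads was 51.4% in defence, 50.7% in protein turnover and 43.5% in signalling, against 21.4% in hormones, 20% in redox and low oxygen and 8.70% in cell division. Within signalling it ran from 17.9% of other protein kinases and phosphatases to 69.6% of secreted peptide genes, with DC1-domain genes at 62.5%. Since the share without day 0 reads depends on level, it was also taken over genes with at least 100 normalised reads at day 4, of which 13.96% had none at day 0. There it was 22.9% in lipids and barriers (11 of 48), 21.1% in cell wall (24 of 114) and 19.3% in transcription (27 of 140), against 6.12% in hormones (3 of 49) and 2.5% in cell division (1 of 40). Defence was at 17.6% (6 of 34) in this set, close to signalling at 17.8% (13 of 73). By class it was 5 of 9 secreted peptide genes, 5 of 11 LBD genes and 7 of 23 lipid-transfer genes, against 0 of 14 cyclin and B-type kinase genes, 0 of 24 spindle genes and 0 of 9 cytokinin genes. It was also high in TIR and NB-LRR proteins (3 of 7), receptor-like proteins (2 of 5) and proteases (4 of 13). Other classes at 0 were other protein kinases and phosphatases (of 24), bHLH (of 10), low oxygen (of 9), FAD-linked oxidases (of 7) and lectins and germins (of 6).

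Cell division genes had reads in the leaf at day 0 and high levels at day 4. Listed were 14 of 46 cyclin and B-type cyclin-dependent kinase genes, with a median log2 fold of 3.79, and 28 of 149 spindle, kinesin and cytokinesis genes, with a median of 3.44. Of genes worded as DNA replication or histone genes 4 of 110 were listed. LEC1, named below among regeneration factors, was counted here through its product words, histone superfamily protein, and had no day 0 reads. In a list of 22 mitosis genes 18 were members, all with more than 3 day 0 reads, and CYCA1;1, CYCA2;3, CDKB2;1 and AUR3 were not listed. KNOLLE (SYP111), the syntaxin that fuses vesicles into the cell plate, led by level per kb with 2517 normalised reads at day 4, against 273 at day 0, 9.23-fold (8.20 to 10.4). CDKB2;2, a kinase of the entry into mitosis, had 2338 and 198, 11.8-fold (10.3 to 13.6). AUR1, an Aurora kinase of the spindle, had 2125 and 159, 13.4-fold (11.5 to 15.7). CDC20.1, which activates the complex that ends mitosis, had 3380.3 and 357, but it shares reads with CDC20.2 to an unknown extent. The 18 genes lay close to the limit of the list, with folds between 8.94 for AUR2 and 22.5 for CYCB2;1. MYB3R-4, a MYB factor known to activate mitosis genes, was a member as well, with 1902 normalised reads at day 4 and 183 at day 0, 10.4-fold (9.01 to 12.1).

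MYB3R factors are known to bind promoters of mitosis genes at a short element whose core is AACGG, so the 250 bases before the annotated start of each protein-coding gene were searched for AACGG on both strands. It was found in 13 of the 18 listed mitosis genes (72.2%) and in 22 of 46 listed cell division genes (47.8%), against 20.6% of the 27561 promoters of this length in the annotation. At least 3 copies were found in 6 of the 18 promoters (33.3%), against 0.733% of all. The element was in 16.3% of promoters of genes without day 0 reads and in 22.2% of those with day 0 reads. A match describes the letters of the promoter and is no evidence of binding. The promoters below belong to the cyclin genes CYC1BAT (CYCB1;2) and CYCB2;3, 2 of the 6 with at least 3 copies, and to KNOLLE, the mitosis gene with the highest level per kb. They are shown 5′ to 3′ in the direction of the gene, from RefSeq TAIR10.1 at chr5:1861704-1861953, chr1:7137829-7138078 and chr1:2711001-2711250, all on the minus strand, with each AACGG or CCGTT in capitals.
CYC1BAT: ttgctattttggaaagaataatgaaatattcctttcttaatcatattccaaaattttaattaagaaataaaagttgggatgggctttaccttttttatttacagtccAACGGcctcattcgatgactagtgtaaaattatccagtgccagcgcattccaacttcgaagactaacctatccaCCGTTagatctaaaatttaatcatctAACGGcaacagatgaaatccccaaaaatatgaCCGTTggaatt
CYCB2;3: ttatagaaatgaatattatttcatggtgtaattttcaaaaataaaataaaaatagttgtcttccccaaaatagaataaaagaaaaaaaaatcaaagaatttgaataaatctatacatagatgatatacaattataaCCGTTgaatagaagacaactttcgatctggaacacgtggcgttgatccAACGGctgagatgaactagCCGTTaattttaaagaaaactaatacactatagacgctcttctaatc
SYP111: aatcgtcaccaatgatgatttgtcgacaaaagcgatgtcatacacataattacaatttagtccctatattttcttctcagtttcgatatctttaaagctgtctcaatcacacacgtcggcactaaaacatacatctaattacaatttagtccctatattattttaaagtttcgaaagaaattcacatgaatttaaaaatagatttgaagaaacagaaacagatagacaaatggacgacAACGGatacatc
CYC1BAT holds 4 copies, the nearest of them 6 bases before the start, CYCB2;3 holds 3 and SYP111 holds 1, which ends 7 bases before the start. CYC1BAT had 2416 normalised reads at day 4, against 245 at day 0, and CYCB2;3 had 2005 and 132.

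Auxin genes were the most numerous of the hormone genes and took most of their reads at day 4, 7.96% of those of the list, although GASA6 had the highest level per kb of the group. Of 199 auxin response, synthesis and transport genes 39 were listed (19.6%), at a median of 1100.2 normalised reads per kb, and 8 of them had no day 0 reads. After GH3.3 the highest were IAA19, an Aux/IAA repressor, with 8668 normalised reads at day 4, against 203 at day 0, 42.7-fold (37.3 to 49.0), and WES1 (GH3.5), another auxin-conjugating enzyme, with 16373 and 326, 50.3-fold (45.3 to 56.0). Of 64 cytokinin genes 13 were listed. CKX3, which degrades cytokinin, had 3015 normalised reads at day 4 and 2 reads at day 0, 1625-fold (449.6 to 13422). LOG3, which releases active cytokinin, had 732 and 4.64, and AHP1, which passes on the cytokinin signal, had 538 and 28.8. Enzymes that remove active auxin or cytokinin were thus among the most read hormone genes, beside repressors and signal carriers. The gibberellin-regulated gene GASA5 had 5935 normalised reads at day 4, against 4.64 at day 0.

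The element TGTCTC, known as a binding site of auxin response factors, was in 9 of the 39 promoters of listed auxin genes (23.1%), against 10.9% of all promoters, 12.3% of those of genes without day 0 reads and 11.9% of those with. Here too a match is no evidence of binding. Auxin genes were not alone above the share of all promoters. TGTCTC was also in 4 of 18 promoters of listed mitosis genes (22.2%) and 7 of 46 of listed cell division genes (15.2%). It was in all 3 of the auxin genes named above, whose promoters follow, 5′ to 3′ in the direction of the gene, with TGTCTC or GAGACA in capitals. They lie at chr2:9866563-9866812 on the minus strand (GH3.3) and at chr3:5263751-5264000 (IAA19) and chr4:13653329-13653578 (WES1) on the plus strand of TAIR10.1.
GH3.3: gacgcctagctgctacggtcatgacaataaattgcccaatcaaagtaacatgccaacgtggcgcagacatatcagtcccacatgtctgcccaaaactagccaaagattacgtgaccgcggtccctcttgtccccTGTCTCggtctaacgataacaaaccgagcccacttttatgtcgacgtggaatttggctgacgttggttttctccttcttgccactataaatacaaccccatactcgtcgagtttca
IAA19: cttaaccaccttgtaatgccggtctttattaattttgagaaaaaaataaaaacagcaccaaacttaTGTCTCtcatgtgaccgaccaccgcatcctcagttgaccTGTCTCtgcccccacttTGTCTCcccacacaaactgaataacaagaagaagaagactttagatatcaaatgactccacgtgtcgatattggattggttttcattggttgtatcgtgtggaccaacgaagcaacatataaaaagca
WES1: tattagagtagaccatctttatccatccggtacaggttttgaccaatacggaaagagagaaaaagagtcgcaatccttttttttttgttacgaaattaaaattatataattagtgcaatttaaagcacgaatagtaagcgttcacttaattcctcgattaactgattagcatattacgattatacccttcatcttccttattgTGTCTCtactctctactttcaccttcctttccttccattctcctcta
IAA19 holds 3 copies and the others hold 1 each, 110 bases before the start in GH3.3 and 41 in WES1. Over the whole list the promoters of genes without day 0 reads held the TATA element TATAAA in 57.2% of cases, those with day 0 reads in 51.9% and all promoters in 47.3%. TGGGCC, known from promoters of ribosomal protein genes, was in 4.10% of promoters of genes without day 0 reads, 8.10% of those with and 13.6% of all. Other elements were searched as well. The element TGTCGG was in 3.72% without day 0 reads, 4.62% with and 4.16% of all. It was in 3 of 39 promoters of listed auxin genes (7.69%). For the element TTGACC the 3 shares were 15%, 13.3% and 12.2%, and 2 of 21 promoters of listed WRKY genes held it (9.52%). For the element CACGTG they were 4.36%, 6.82% and 6.46%. For the element GCCGCC they were 2.05%, 1.49% and 1.88%.

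Transcription factors formed the largest group with a named function, and families varied in their start. LBD genes had the highest listed share, 14 of 43 (32.6%), and 7 of them had no day 0 reads. LBD4 had 1885 normalised reads at day 4, against 131 at day 0, the low-oxygen gene LBD41 had 2801 and 36.2, and LBD18, the partner of LBD16 in lateral roots, had 972 and 12.1. WRKY genes (21 of 76, 27.6%), known from defence and development, and NAC genes (27 of 114, 23.7%) followed. WRKY23, an auxin-induced regulator of auxin transport, had 8617 and 91.8, 93.8-fold (77.0 to 116). NAC071, which acts in the healing of cut stems, had 2341 normalised reads at day 4 and 1 read at day 0. Homeobox genes (15 of 93) were led by HB17, with 5475 and 39.9, WOX11, of root founder cells, with 6037 and 2.78, and PHB, of the upper leaf side, with 15600 and 1737. Of 165 AP2-type genes 27 were listed, 3 of them without day 0 reads, and of 257 MYB genes 34 were listed, 17 of them without. Zinc finger and GATA genes, at 27 of 540 (5%), were listed at a lower share than the 7.93% of all protein-coding genes.

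Regulators of root primordia and root stem cells mostly started from few reads. Of a list of 25, 18 were members. Of these, 6 (33.3%) had no day 0 reads, beside 36.2% of the whole list, whose levels were lower. The median at day 4 was 523 normalised reads for the 18 genes and 140.3 for the list. All of the 18 but AHP6 had at least 100 normalised reads, a level at which 13.96% of listed genes had no day 0 reads. Among those above it, GATA23, WOX7, LBD17, LBD33 and TMO7 had none at day 0. At most 3 reads were counted for 13 of the 18, and for 56.5% of the whole list. The median level of the 18 genes was 854 normalised reads per kb at day 4. WOX11, described above, had the highest level. MAKR4, which acts in lateral root initiation, had 4660.3 normalised reads at day 4, against 6.49 at day 0, 718-fold (348 to 1786). PLT3 (AIL6), an AP2 factor of root meristems, had the most day 0 reads of the 18, with 5988 normalised reads at day 4 and 145 at day 0. GATA23, of lateral root founder cells, had 425 and no day 0 reads, at least 153-fold higher, and WOX7 had 396 and none. PUCHI, an AP2-type factor of primordium shape, had 1196 normalised reads at day 4 and 1 read at day 0. LBD29 and WOX5, the homeobox gene of the root quiescent centre, had 651 each at day 4 and 1 day 0 read each. Among the PLETHORA genes, which keep root stem cells, AIL7 (PLT7) had 1073 and 8.35, BBM had 527 and 2.78, PLT2 had 439 and 1.86, and PLT1 had 389 and 0.928. LBD17 (ASL15), LBD33 and TMO7 (BS1) had 409.6, 149 and 199 normalised reads at day 4 and none at day 0, and the cytokinin signalling inhibitor AHP6 (HP6) had 43.4 and none. Day 4 levels of the 18 genes thus ran from 43.4 to 6037 normalised reads, while 13 had 3 day 0 reads or fewer. The 7 that were not members were ARF7, ARF19, CRF2, PLT5, SCR, SHR and WOX12. In a list of 13 regeneration and wound factors 6 were members: Rap2.6L, with 5716 and 28.8, HSF4 (HSFB1), with 4345 and 296, AT5G07310 (ERF115) and NAC071 as above, and ESR1 and LEC1 at 104 and 7.73 normalised reads at day 4.

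**Figure D5:**
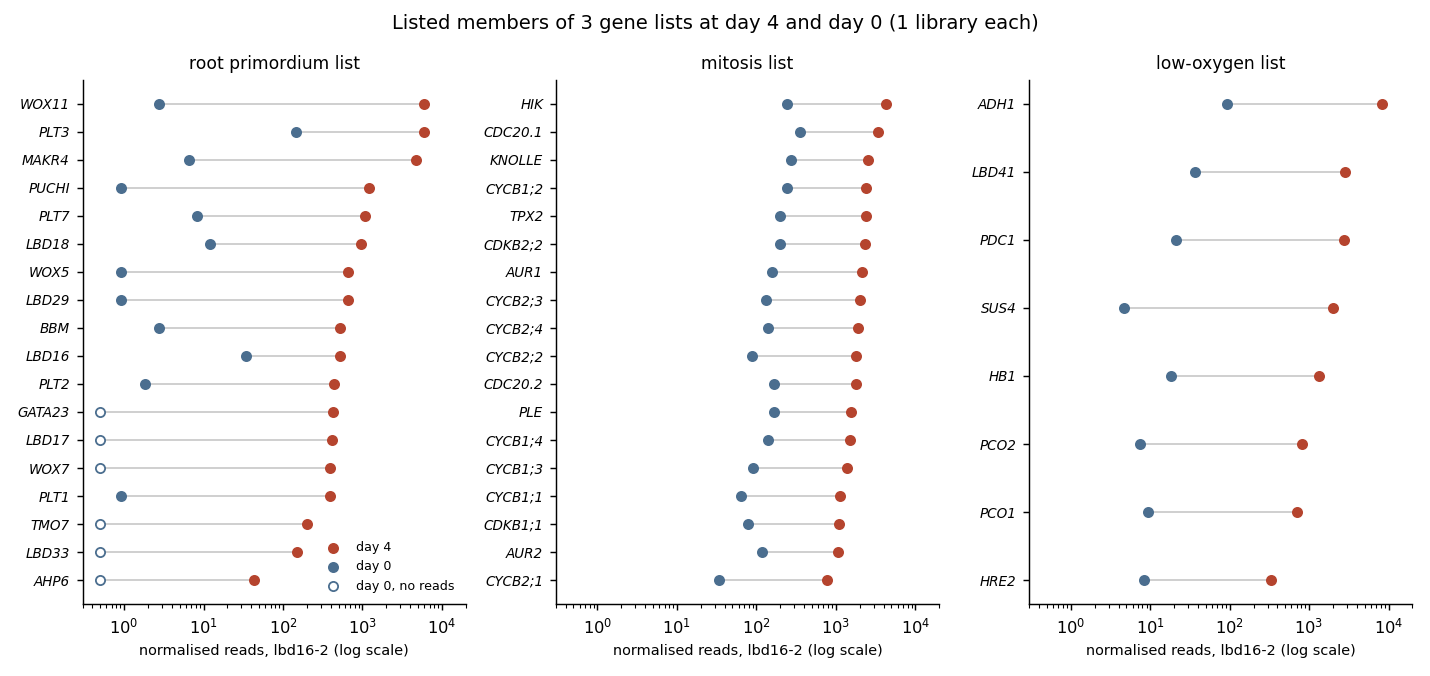
Normalised reads in lbd16-2 at day 4 and day 0 (x axis, log scale; open circles at the left edge are genes with 0 reads at day 0) for the listed members of 3 gene lists (y axis), 1 library per day. The 18 mitosis genes start between 34.3 and 357 normalised reads. Of the 18 root primordium genes 13 start from 3 reads or fewer, as do 56.5% of all listed genes.

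Among markers of other cell types, some root cap, root hair and suberin genes were members, at medians of 214, 46.9 and 91.1 normalised reads per kb at day 4, beside 157 for the list. Of 6 root cap genes 4 were members, 3 of them without day 0 reads. SMB, a NAC factor of the maturing root cap, had 369 normalised reads at day 4 and FEZ, of root cap stem cells, had 123, both with none at day 0. Of 15 root hair and trichoblast genes 11 were members, 9 without day 0 reads, summing to 943 normalised reads at day 4 and 12.1 at day 0. RHD6, which starts root hairs, had 340.1 of these, and the others had 12.5 to 143. Of 22 endodermis and suberin genes 10 were members, summing to 2749 normalised reads at day 4 and 27.8 at day 0. FAR4, which makes suberin alcohols, had 960.1 and 1 read at day 0, CYP86A1, which oxidises suberin acids, had 326 and none, while CASP1 to CASP5 of the Casparian strip were not listed. None of 11 xylem, 10 pollen and tapetum or 8 guard cell markers was a member. Of 9 phloem markers SMXL5 (AT5G57130) was, with 8526 and 605, of 12 shoot meristem markers CUC1, CUC2 and STM were, at 39.2 to 86.2 normalised reads at day 4, and of 16 embryo and seed markers AGL15, ESR1 and LEC1 were.

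Cell wall genes took the largest part of the reads at day 4 of any group with a named function, 13.9%. Of 78 class III peroxidases, secreted enzymes that cross-link or loosen walls, 40 were listed (51.3%), the highest share of any class, with 13 of them without day 0 reads. AT2G37130 had 16215 normalised reads at day 4, against 31.5 at day 0, 514-fold (368 to 743), and AT2G38380 had 13188 and 6.49, 2031-fold (986 to 5052). Their levels per kb ran from these genes at the top of the list down to 8 in the lowest band, so the family was listed at every level. Of 72 expansin and xyloglucan genes 19 were listed (26.4%). XTH19, which cuts and rejoins xyloglucan, had 7916 and 13.0, 610-fold (363 to 1115). Structural proteins (57 of 340 extensin, arabinogalactan and related genes) included EXT4, with 9480.4 and 13.0, and AGP31, with 14689 and 160. The endoglucanase gene GH9B13 had 17287 and 120, and the pectin lyase-like gene AT3G53190 had 16371 and 1581.

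Barrier and lipid genes were led by small lipid-transfer proteins. Of 129 such genes 28 were listed, with the highest median log2 fold of all classes, 7.17, and 12 of them without day 0 reads. AT4G15160 had 31055 normalised reads at day 4, against 37.1 at day 0, 837-fold (615 to 1172), and LTP3 had 11599 and 30.6. Many products of this class also carry the words seed storage albumin. With the classes read in reverse order they were counted as storage proteins, and lipids and barriers then made up 1.78% in place of 3.15% of the list. Among lipases CDEF1, a cutinase, had 2443 and 2.78.

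Classes within specialised metabolism and defence varied in their share without day 0 reads. As groups, 37.0% and 51.4% of their listed genes had none. With at least 100 normalised reads at day 4 these shares were 15.6% (15 of 96) and 17.6% (6 of 34). Of 58 glutathione S-transferases, detoxifying enzymes, 20 were listed (34.5%), at a median of 1236 per kb, and 4 had no day 0 reads. GSTF6 had 5440 and 143 and GSTF7 had 4081 and 40.8, near-identical genes whose reads may be split. Of 28 FAD-linked oxidases of the berberine-bridge family 9 were listed, led by AT1G30760 with 11424 and 9.28. Of 254 cytochrome P450 genes 48 were listed, mostly low, at a median of 66.5 per kb and with 21 without day 0 reads. PAD3, of the last steps of camalexin synthesis, had 2146 and 3.71, 578-fold (226 to 2124). In a list of 14 camalexin and salicylate genes 5 were members: PAD3, CYP71A12, CYP71A13, BGL2 (PR2), with 903 and 10.2, and PR1, with 24.4 and none. CYP71A12 and CYP71A13 are near-identical too. Of 104 chitinase, PR and inhibitor genes 26 were listed (25%), led after AT2G19970 by the thaumatin-like gene ATLP-1, with 14610 and 417. Defensins stood apart from them: 12 of 290 were listed (4.14%), 10 of them without day 0 reads, although PDF2.1 had 2786 normalised reads at day 4 and 5 reads at day 0. Of 135 lectin and germin genes 19 were listed (14.1%), 13 of them without day 0 reads, at a median of 46.4 per kb. Of the 6 with at least 100 normalised reads at day 4, all had day 0 reads.

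Signalling genes were many and weakly read. Of 144 DC1-domain genes, a cysteine- and histidine-rich family, 40 were listed (27.8%), 25 without day 0 reads, at a median of 22.6 normalised reads per kb, with 26 in the lowest band and none in the highest. The highest, AT5G40590, had 177 normalised reads at day 4 and none at day 0. Of 410 receptor-like kinases 43 were listed, 20 in the lowest band; IMK2, known from meristems, was highest with 7137 and 586. Of 114 secreted peptide genes 23 were listed, 16 of them without day 0 reads, but at a median of 358 per kb. RGF8, given above, led them, and RGF5 of the same family had 246 and 23.2. The median of the peptide genes lay above the 157 of the list per kb, but not without the division by length: it was 74.3 normalised reads, against 140.3 for the list, and their median coding length was 282 bases, against 1041. The median of the DC1-domain genes lay under that of the list on both scales, at 38.3 normalised reads.

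Transport and energy genes closed the list. ABCB4, which carries auxin, had 6034 normalised reads at day 4, against 192 at day 0, and ABCG37, which exports auxin precursors, had 4630 and 19.5, 238-fold (155 to 384). FRD3, a citrate carrier of iron supply, had 2215 and 9.28. Of 18 genes of nitrogen, phosphate and iron uptake 6 were members, and the phosphate carrier gene PHT1;4 led with 1130.1 and 97.4. Of 11 low-oxygen genes 8 were members, all with day 0 reads. ADH1, the alcohol dehydrogenase of fermentation, had 8317 and 93.7, 88.8-fold (73.0 to 109), and the haemoglobin gene HB1 had 1347 and 18.6. Pyruvate decarboxylase PDC1 (AT4G33070), of the same fermentation path, had 2732 and 21.3, and the sucrose synthase gene SUS4 had 1999.9 and 4.64. The plant cysteine oxidase genes PCO1 (AT5G15120) and PCO2 (AT5G39890), whose products sense oxygen, had 699.7 and 9.28, and 803 and 7.42. The folds of the 8 genes lay between 39.2 for HRE2 (ERF71) and 431 for SUS4, above those of every mitosis gene of the list. PCK1, the entry enzyme of gluconeogenesis, had 42071 and 3614, 11.6-fold (11.3 to 12.0), but 7 of 9 genes of its list were not members, and the other, ICL of the glyoxylate cycle, had 37.5 and none. The class drawn by the words of ubiquitin ligases had the lowest share of the larger classes, 46 of 1269 (3.62%). It also took in UBC20, a ubiquitin-conjugating enzyme gene, and AT5G18310, whose product is worded as a ubiquitin hydrolase.

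Listed genes were often neighbours. Of 2187 protein-coding members 602 (27.5%) lay next to another listed gene in the order of protein-coding genes, against 14.1% of unlisted genes. They formed 275 runs, 9 of them of 4 genes. One such run on chromosome 2 held 4 beta-glucosidase genes: BGLU15, with 2647 normalised reads at day 4 and 23.2 at day 0, BGLU28, with 138 and 11.1, BGLU29, with 262 and none, and BGLU17, with 65.4 and none. Another, on chromosome 1, held 4 genes of the DUF1262 family, at 7.13 to 41.0 normalised reads at day 4. Near-identical neighbours can share reads, and how much they did was not tested. Listed shares were even across the chromosomes, from 7.31% on chromosome 3 to 8.54% on chromosome 1. The median coding length was 978 bases for genes without day 0 reads and 1068 for those with, beside 1044 for all protein-coding genes, and proteins of at most 100 residues made up 8.21%, 4.76% and 7.77%.

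In the authors' deposited table an FDR under 0.05 was given to 202 of the 2251 genes, 0.824% of those tested. The sources used here do not say how single libraries yielded it. These 202 were 39 of the 815 genes without day 0 reads (4.79%) and 163 of the 1436 with (11.4%), and in the authors' deposited table the lowest day 4 level among them was 363 normalised reads. Cell wall (32 of 182) and redox and low oxygen (8 of 45) had the highest shares of such genes in the authors' deposited table, 17.6% and 17.8%, and cell division had 1 of 46. LBD16 had an FDR of 0.579 and GH3.3 of 1.00 in the authors' deposited table, where ALMT1 and AT5G07310 (ERF115) each had 0.00275.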

How the data were processed

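Total RNA of 4 libraries, 1 per group, was sequenced on an Illumina HiSeq instrument, per the labels' protocols. FastQC, Trim Galore, STAR, Cufflinks and DESeq with TAIR10 are named in the submitters' processing notes; the sources used here do not give their versions, settings, strand or treatment of multimapping reads. The deposited tables hold log2 levels per group, which are log2(normalised reads + 1), the authors' log2 fold, and a p-value with an FDR. The authors listed only genes with a log2 fold above 3, a linear ratio above 8.

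From the levels, reads divided by a size factor per library came out whole within 0.001 reads for 100% of values. The total depth is unknown. The number of tested genes, 24518, was recovered from the deposited FDR and p-values as the number under which their ratio most often gave a whole rank (for 54.4% of genes, against 25.2% under the next best number). Python 3.11.15, numpy 2.4.6, pandas 2.3.3, scipy 1.17.1 and matplotlib 3.10.9 were used. Scripts were tested on simulated data. All 2251 genes matched RefSeq TAIR10.1, which gave products, coding lengths and promoters of 250 bases.

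Members, gene lists and classes were chosen with earlier results of these data known. Class words were corrected, and classes for DC1-domain proteins and alpha/beta-hydrolases added, after the list had been seen. Genes were named by rule: LBD16, the 10 highest per kb with and without day 0 reads, the 3 highest per class and the 4 highest per gene list. Others were named after their values were seen. Alternatives were the fold limit, a minimum level, the deposited FDR, the definition of presence, the wild-type day 0 library, the pseudocount, thinning, levels without length, the class order and the denominator.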

Additional observations from a re-analysis of the deposited data

How the results depend on the processing

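No paired analysis was possible because each group had 1 library. With a log2 fold above 4, 1363 genes were listed, and 202 with a deposited FDR under 0.05. The share without day 0 reads, 36.2%, was 42.0% with a log2 fold above 4 and 19.6% with at least 50 normalised reads at day 4. It was 19.3% with the FDR limit, 56.5% when presence meant 4 reads and 13.1% at or above the median level per kb. Over the 1657 genes with values in both genotypes, it was 30.2% in the wild-type day 0 library and 34.8% in that of lbd16-2. The median log2 fold, 4.46, was 6.18 with a pseudocount of 0.1, 3.51 with 5, 5.57 with a log2 fold above 4, 5.08 with at least 50 normalised reads and 8.52 with the FDR limit. With levels not divided by length, genes without day 0 reads made up 78.6% of the lowest and 2.66% of the highest of 4 equal bands. Of genes without day 0 reads, 88.6% were also without reads in wild type when presence meant 4 reads. With all annotated genes as denominator 5.91% were listed. As shares of the list, a log2 fold above 4 gave cell division 0.734%, cell wall 9.76%, defence 4.11%, non-coding RNA 1.76%, other named proteins 25.7% and transcription 12.3%. At least 50 normalised reads gave cell division 2.72%, non-coding RNA 1.04%, protein turnover 2.46% and unknown 10.5%. The FDR limit gave cell division 0.495%, cell wall 15.8%, lipids and barriers 4.46%, non-coding RNA 0.495%, other named proteins 22.3%, protein turnover 1.98%, redox and low oxygen 3.96%, signalling 2.48%, specialised metabolism 9.90%, transcription 14.4%, transport 6.93% and unknown 8.91%. Reverse class order gave lipids and barriers 1.78% and storage and stress proteins 2.58%. All values with thinned day 4 reads, and the 34.8%, were among 56 values that stayed within their intervals or within 1.5 times. The cause of these moves was not tested, beyond that stricter limits leave fewer genes. With 1 library per group, differences between plants are not measured.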
